A study of Mus musculus with 30 samples.

Results

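The genes described here are Pck1, G6pc, Fbp1, Tat, Igfbp1, Angptl4 and Lpin1, mouse genes known for high or rising mRNA in the fasted liver. They were taken from the deposited count table by gene symbol alone, and 7 of the 36103 genes listed there are members. Each symbol matched 1 Ensembl identifier. RNA was sequenced from the whole liver, gastrocnemius (a fast hindlimb muscle), diaphragm and heart of male Mtm1-/y mice and WT littermates of 5 weeks. Both genotypes were on a pure 129Pas background, and the Mtm1-/y mice lack myotubularin, a phosphoinositide phosphatase encoded on the X chromosome, in every cell rather than in 1 tissue. There are 3 WT and 4 Mtm1-/y livers, 4 and 4 libraries of the gastrocnemius and of the heart, and 4 and 3 of the diaphragm. The mice had free access to food and were not fasted by design, and the time of day at which tissue was taken is not given in the sources used here. Whole-organ RNA was used, so fewer cells of a type and less RNA per cell cannot be told apart in any value below. The question asked of the data was whether this set differed between the genotypes in the liver, and whether the same genes moved in the 3 striated muscles.

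Gluconeogenesis makes glucose from lactate, glycerol and amino acids, and it takes place mainly in the liver and the kidney. Glucagon and glucocorticoids raise transcription of its key enzymes during fasting, partly through cAMP response elements that bind CREB, and insulin lowers it, partly by keeping the forkhead factor FOXO1 out of the nucleus. Pck1 encodes cytosolic phosphoenolpyruvate carboxykinase, Fbp1 fructose-1,6-bisphosphatase and G6pc the catalytic subunit of glucose-6-phosphatase, which act in that order towards free glucose. Tat encodes tyrosine aminotransferase, a classic glucocorticoid target that starts the breakdown of tyrosine. Igfbp1 and Angptl4 encode secreted proteins: the first binds insulin-like growth factors and is repressed by insulin, and the second inhibits lipoprotein lipase and is a target of PPAR receptors. Lpin1 encodes lipin 1, a phosphatidate phosphatase that also acts as a nuclear coactivator. Pck1, Angptl4 and Lpin1 are also expressed in fat cells, where Pck1 serves glyceroneogenesis, and Lpin1 is abundant in striated muscle.

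RefSeq promoter windows of GRCm38.p6 were found for 6 of the 7 genes, all but Angptl4. The sequences of 4 of them are shown because their liver values carry the results: Pck1 and Tat are the members whose genotype groups did not overlap in the liver, and G6pc and Igfbp1 are those that varied most between livers of the same genotype. Each run starts 250 bases before the RefSeq start site, reads 5′ to 3′ on the gene's strand, and stops before the first transcribed base of any annotated transcript. All 4 genes lie on the plus strand. Capitals mark a match to 1 of 8 motifs searched on both strands of the 300-base window. The cAMP response element was searched as TGACGTCA, in its variant form TTACGTCA and by its shorter core TGACG, which overlaps both. The forkhead motif was searched as GTAAACA and the core of the insulin response element as TGTTTTG. For the glucocorticoid receptor the letters were TGTTCT, for the E-box they were CACGTG, and for the TATA box they were TATAAA.
Pck1, chr2:173152823-173153047: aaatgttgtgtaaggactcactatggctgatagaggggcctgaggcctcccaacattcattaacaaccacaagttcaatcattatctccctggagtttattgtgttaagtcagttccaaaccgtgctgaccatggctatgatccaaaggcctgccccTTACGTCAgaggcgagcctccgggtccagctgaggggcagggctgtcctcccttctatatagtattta
G6pc, chr11:101367466-101367560: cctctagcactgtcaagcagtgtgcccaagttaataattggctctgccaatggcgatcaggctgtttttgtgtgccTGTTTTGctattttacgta
Igfbp1, chr11:7197537-7197781: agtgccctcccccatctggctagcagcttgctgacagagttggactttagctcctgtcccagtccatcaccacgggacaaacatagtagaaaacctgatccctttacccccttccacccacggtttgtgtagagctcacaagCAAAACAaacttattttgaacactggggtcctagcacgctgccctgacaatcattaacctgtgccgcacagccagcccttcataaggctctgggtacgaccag
Tat, chr8:109990186-109990435: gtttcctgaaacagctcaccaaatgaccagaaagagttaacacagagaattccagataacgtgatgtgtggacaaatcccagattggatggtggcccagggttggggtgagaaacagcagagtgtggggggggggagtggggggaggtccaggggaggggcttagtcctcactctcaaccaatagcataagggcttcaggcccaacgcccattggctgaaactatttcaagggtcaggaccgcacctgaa
The Pck1 window holds TTACGTCA with its first base at -93, counted from the start site, and the core TGACG inside it on the other strand. That variant was present in 0.499% of the 32851 windows of this length in the table, and the core in 20.8%. The G6pc window holds TGTTTTG at -174 and TATAAA at -29, and the Igfbp1 window holds the reverse complement CAAAACA at -108. These motifs occur in 6.28% and 13.6% of windows. The Lpin1 window holds TGTTCT at -163, a motif of 19% of windows, and none of the 8 motifs is in the Tat or Fbp1 window. A match describes these letters only, and binding was not measured.

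In the GENCODE M21 annotation (GRCm38) none of the 7 genes overlaps another annotated gene. Pck1 lies at chr2:173153048-173159273 on the plus strand, G6pc at chr11:101367561-101377903 on the plus strand and Fbp1 at chr13:62864753-62888282 on the minus strand. Tat lies at chr8:109990437-109999803 and Igfbp1 at chr11:7197782-7202546, both on the plus strand. Angptl4 lies at chr17:33773750-33781830 and Lpin1 at chr12:16535669-16610966, both on the minus strand. Merged exons span from 1525 bases in Igfbp1 to 9665 bases in Lpin1, and the values count reads over all exons, untranslated parts included.

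The 30 libraries hold 24873817 to 44289343 counts each. Levels are given as CPM, a library's counts scaled to a common total after TMM scaling within a tissue, with the SD between libraries. Mtm1, the targeted gene, lay between 12.5 and 19 CPM in the WT livers and between 3.37 and 6.39 CPM in the Mtm1-/y livers, and its groups did not overlap in any of the 4 tissues. In the liver its log2 fold change of -1.60 ± 0.23 (SE) came with adjusted p = 0.365 in edgeR and 1.23e-06 in DESeq2. The labelled tissues carried their defining markers: summed levels of 12 hepatocyte markers reached 151000 to 188000 CPM in the livers, of 9 skeletal muscle markers 60600 to 232000 CPM in the diaphragm and gastrocnemius, and of 7 cardiomyocyte markers 27800 to 62100 CPM in the hearts. The hepatocyte markers also reached 555 to 58100 CPM in the diaphragms, against 6.25 to 169 CPM in the gastrocnemius and heart. Mtm1-/y liver 3 stood apart from the other livers in carrying 25 reads of Plin1, against 0 or 1. Mtm1-/y liver 2 stood apart in other markers. Its skeletal muscle markers summed to 117 CPM against 7.40 to 35.8 CPM in the other livers, its macrophage markers to 47.2 CPM against 156 to 234 CPM, and its endothelium markers to 68.9 CPM against 110 to 136 CPM.

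In WT mice all 7 genes were higher in the liver than in each of the 3 muscles by edgeR over the 15 WT libraries, where 37.4% of 17725 genes were higher in the liver than in the gastrocnemius, 35.5% than in the diaphragm and 35.6% than in the heart. The smallest of these differences was that of Lpin1 between liver and diaphragm, at 0.79 ± 0.17 on the log2 scale (adjusted p = 0.000644). With library totals in place of TMM this difference was 0.31 and missed the threshold (adjusted p = 0.0954, edgeR). Per kilobase of merged exon, a scale on which genes can be set side by side, the WT liver carried 1370 ± 160 CPM per kb of Pck1 and 1260 ± 105 of Tat (SD, n = 3). Fbp1 followed at 638 ± 30.5 CPM per kb, G6pc at 354 ± 193, Igfbp1 at 148 ± 92.9, Lpin1 at 87.6 ± 15.9 and Angptl4 at 77.1 ± 14.5. The ranges of Pck1 and Tat overlapped, as did those of each neighbouring pair from G6pc down to Angptl4, while the lowest Fbp1 level per kb exceeded the highest of G6pc.

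The order over tissues was liver, diaphragm, then heart or gastrocnemius for each gene. All 7 were lower in the WT heart and in the WT gastrocnemius than in the WT diaphragm by edgeR (29.6% and 30.6% of genes were). The WT diaphragms differed widely in Alb, the hepatocyte's albumin gene, at 294 CPM in library 3 and 17700 to 26600 CPM in the others. In library 3 G6pc was at 1.79 and Tat at 12.5 CPM, against 153 to 274 and 578 to 844 CPM in the others. Lpin1 was at 694 CPM there, inside the 656 to 758 CPM of the others. The part of hepatocyte RNA in this order was not tested. The heart and the gastrocnemius, neighbours in that order, differed for Lpin1 only, by -0.96 ± 0.16 on the log2 scale (adjusted p = 0.000103), where 61.3% of genes differed in either direction. Their WT means, scaled within each tissue and so not on the scale of this test, were 249 ± 34.4 and 368 ± 62.9 CPM of Lpin1. For the other 6 genes this difference missed the threshold, with adjusted p from 0.104 to 0.767. Without WT diaphragm replicate 3, which the fit over all WT libraries shares, Pck1, G6pc, Fbp1 and Angptl4 passed as well, with adjusted p from 0.0134 to 0.0363, and Angptl4 passed also without WT gastrocnemius 4 or WT heart 2.

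In the liver none of the 7 genes passed at an adjusted p under 0.05 in edgeR, the share of all genes called being 0% of 14305. Tat and Pck1 came closest, both lower in Mtm1-/y mice. At an unadjusted p under 0.05 edgeR marked these 2, a rule met by 4.24% of genes (2.54% lower), DESeq2 called Tat alone (0.163% of genes), and limma voom called none. The groups of Tat and Pck1 did not overlap, which held for 6.09% of genes in either direction and for 3.47% with Mtm1-/y lower. Over the 7 genes the median log2 fold change was -0.31 and 5 of 7 were negative, beside a median of 0.01 over all genes tested.

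Pck1, the entry enzyme of gluconeogenesis, lay at 4350, 4410 and 5330 CPM in the 3 WT livers and at 3510, 3770, 3100 and 3420 CPM in the 4 Mtm1-/y livers. Every WT liver was above every Mtm1-/y liver. The means were 4698 ± 549 and 3452 ± 277 CPM (SD), and the log2 fold change was -0.44 ± 0.12 (SE), with unadjusted p = 0.00645 and adjusted p = 0.969 in edgeR. DESeq2 gave it an adjusted p of 0.186.

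G6pc, whose product releases free glucose, had 773, 435 and 1360 CPM in the WT and 1350, 491, 913 and 1550 CPM in the Mtm1-/y livers. Each genotype held both a low and a high liver, and the ranges covered each other almost wholly. The log2 fold change of 0.33 ± 0.45 was smaller than its error (adjusted p = 0.97, edgeR).

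Fbp1, which acts between the other enzymes, had 1050, 1060 and 1150 CPM in the WT and 1280, 1380, 1190 and 1050 CPM in the Mtm1-/y livers. It was the steadiest of the 7, with its highest liver only 1.32 times its lowest. Its log2 fold change was 0.17 ± 0.12 (adjusted p = 0.969, edgeR). Of the 3 enzymes of the pathway, Pck1 was lower without overlap, and G6pc and Fbp1 were higher on average with overlapping groups. None of the 3 passed in edgeR, and whether their directions differed was not tested.

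Tat had 2920, 2860 and 3320 CPM in the WT livers. The Mtm1-/y livers had 1870, 1520, 1590 and 2070 CPM. The highest Mtm1-/y liver was well under the lowest WT liver. The log2 fold change was -0.78 ± 0.14, a level 1.72 times lower (unadjusted p = 0.00036, adjusted p = 0.505, edgeR), and DESeq2 gave an adjusted p of 0.000341. Leaving out any 1 liver kept the value between -0.86 and -0.71.

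**Figure D1:**
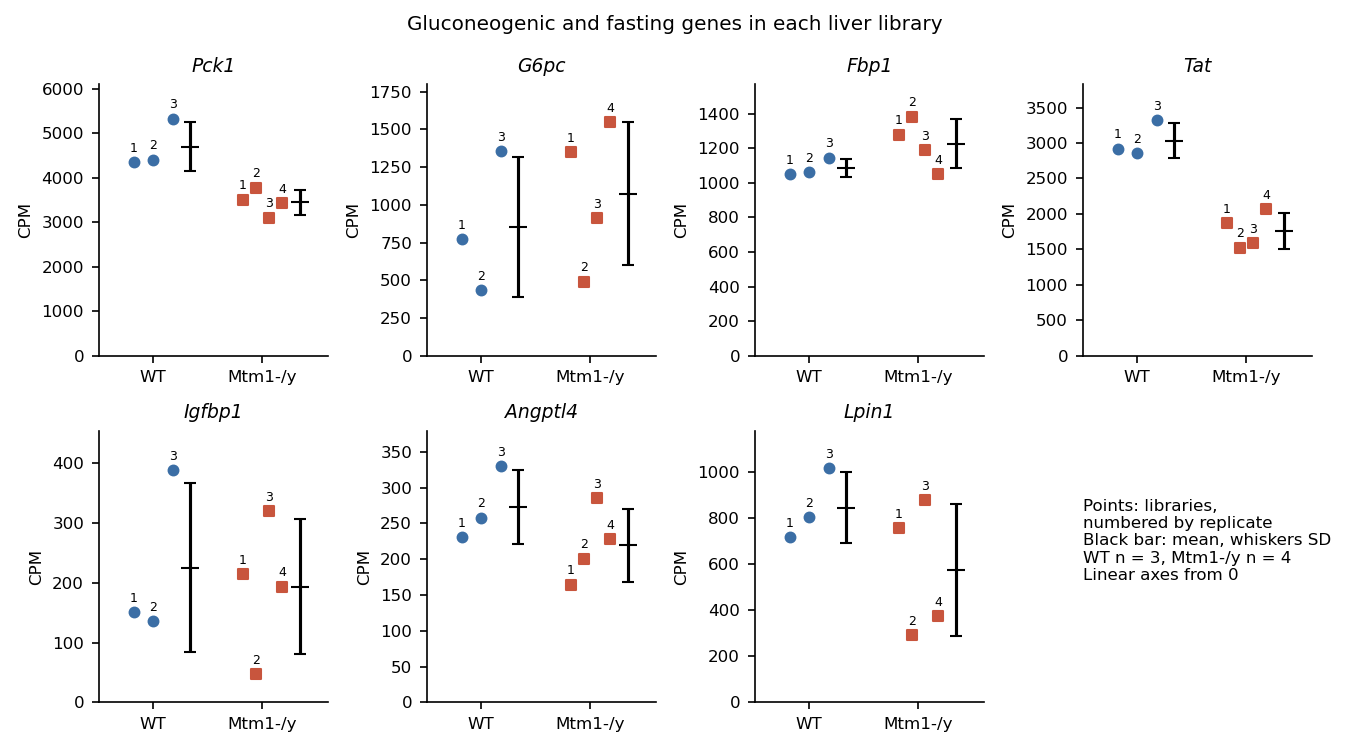
CPM (linear axes from 0) of the 7 genes in each liver library, blue circles for WT (n = 3) and red squares for Mtm1-/y (n = 4), numbered by replicate, with black bars for the mean and whiskers for the SD. The Pck1 and Tat groups are separate, and Mtm1-/y liver 2 is lowest for Igfbp1 at 46.8 CPM and for Lpin1 at 291 CPM.

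Igfbp1, the insulin-repressed binding protein, had 151, 136 and 388 CPM in WT livers. In Mtm1-/y livers it had 215, 46.8, 320 and 193 CPM. The highest liver, WT liver 3, carried 8.31 times the lowest, Mtm1-/y liver 2, and the groups overlapped. The log2 fold change was -0.22 ± 0.58 (adjusted p = 0.98, edgeR), and it was 0.43 without WT liver 3 and 0.11 without Mtm1-/y liver 2.

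Angptl4 had 231, 258 and 330 CPM in the WT and 164, 200, 285 and 228 CPM in the Mtm1-/y livers, and the groups overlapped. Its log2 fold change was -0.31 ± 0.20 (adjusted p = 0.969, edgeR). Lpin1 had 718, 804 and 1020 CPM in the WT and 757, 291, 879 and 375 CPM in the Mtm1-/y livers. Livers 2 and 4 of the Mtm1-/y group lay far under all others, and livers 1 and 3 lay within or close to the WT range. The log2 fold change of Lpin1 was -0.56 ± 0.36 (adjusted p = 0.969, edgeR) and -0.34 without Mtm1-/y liver 2.

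The 7 genes ranged from steady to variable between livers of the same genotype. The SD of log2 CPM within genotype, pooled over the groups, was 0.138 for Pck1, 0.138 for Fbp1 and 0.176 for Tat, and 0.308 for Angptl4. For Lpin1 it was 0.62, for G6pc 0.775 and for Igfbp1 1.08. The median over 12174 genes was 0.209, and 98.6% of these genes varied less than Igfbp1, 96.3% less than G6pc and 93.3% less than Lpin1. By the same measure 24.5% of genes varied less than Pck1, 24.8% less than Fbp1, 38.9% less than Tat and 71.8% less than Angptl4. WT liver 3 was the highest liver for 5 of the 7 genes, all but G6pc and Fbp1, and Mtm1-/y liver 2 was the lowest for 3, namely Tat, Igfbp1 and Lpin1. That same liver 2 was the highest of the 7 for Fbp1.

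**Figure D2:**
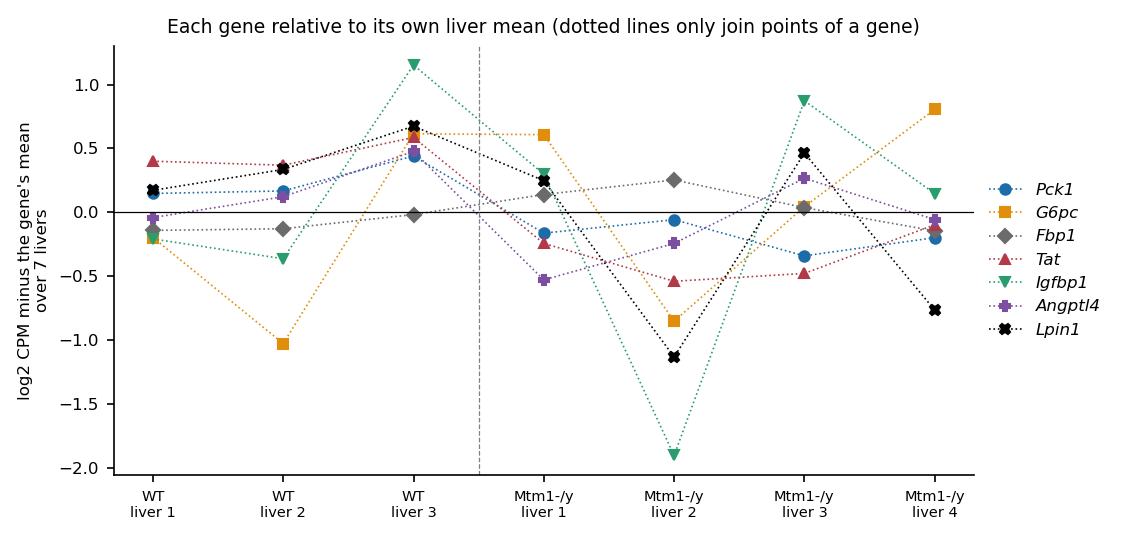
Log2 CPM of each gene minus its own mean over the 7 livers, with a symbol for each gene joined by dotted lines, libraries on the horizontal axis and the dashed line between genotypes. Igfbp1 spans the widest range, from Mtm1-/y liver 2 to WT liver 3, while Fbp1 stays close to 0 in every library.

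Mtm1-/y liver 2 also stood apart in clock genes, which were looked at by library after the values of the 7 genes had been seen. Dbp, an output gene of the circadian clock, was at 108 CPM there and at 0.811 to 11.3 CPM in the other 6 livers. Nr1d1, a clock repressor, was at 203 CPM there against 35.5 to 102 CPM, and Arntl, which peaks in antiphase to Nr1d1, was at 8.35 CPM against 19.5 to 29.8 CPM. Per1, a clock gene of the repressing arm, was at 42.7 CPM, inside the 26.2 to 58 CPM of the other livers. So this liver was the highest for Dbp and Nr1d1, the lowest for Arntl and within the range for Per1. Of the 15 clock genes in the list, 0 passed in the liver by edgeR, 0 had an unadjusted p under 0.05 and 0 passed in DESeq2, and their median log2 fold change was -0.09. This liver, the lowest for Igfbp1 and Lpin1, was also the lowest for the summed macrophage and endothelium markers and the highest for the skeletal muscle markers given above. The part of the clock genes and of these markers in the values of the 7 genes was not tested. Without that liver, the log2 fold changes were -0.49 for Pck1 and -0.72 for Tat, both still with a lower mean in Mtm1-/y.

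No list of related genes held a member that passed in the liver by edgeR, and the lists are given by their counts and medians. Of the other gluconeogenic enzymes and carriers, 18 of 20 were tested, with a median log2 fold change of 0.04 and 1 at an unadjusted p under 0.05. Mdh1, cytosolic malate dehydrogenase, had a log2 fold change of 0.06. Of 20 hormone receptors and transcription factors of the fasting response, 19 were tested, with a median of -0.03, 9 positive and 10 negative. All 5 at an unadjusted p under 0.05 in edgeR (Klf15, Cebpb, Foxo1, Stk11 and Ppara) were lower in Mtm1-/y livers without overlap between the groups. Of all genes tested 4.24% met that p (2.54% lower), and 3.47% were lower without overlap. The most abundant members of this list, Hnf4a and Creb3l3, had log2 fold changes of 0.10 and -0.04. These 5 genes are named after their values were seen. Klf15, a Krüppel-like factor that promotes amino acid breakdown and gluconeogenesis in fasting, had a log2 fold change of -0.67 ± 0.12 (adjusted p = 0.505 in edgeR, 0.00117 in DESeq2). Foxo1, the insulin-controlled forkhead factor, had means of 80 ± 25.8 CPM in the WT and 47.4 ± 5.49 CPM in the Mtm1-/y livers.

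Among 14 glucocorticoid-responsive genes the median was -0.48, with 12 negative, 3 at an unadjusted p under 0.05 and 2 called by DESeq2, Pim3 and Zfp36. The 2 most abundant, Errfi1 and Tsc22d3, had log2 fold changes of -0.17 and -0.46. The fed-state list of insulin-induced genes, 17 tested, also had a negative median, of -0.26, with 13 negative. Ppp1r3c, a glycogen-targeting subunit of protein phosphatase 1, was the member that DESeq2 called in it, with means of 177 ± 22.3 CPM in the WT and 93 ± 16.8 CPM in the Mtm1-/y livers, and its abundant Scd1 and Igf1 had -0.42 and -0.11. Pim3, Zfp36 and Ppp1r3c are likewise named after their values were seen. The study that reported these libraries lists Pim3 and Zfp36 among its differentially expressed liver genes. The gene lists were chosen with earlier results known, so these calls are no separate evidence for the list. So the glucocorticoid-responsive and the fed-state list both had negative medians in the liver, as they had in each of the other tissues. This was not particular to them. The lists of fasting regulators, of amino acid breakdown and of clock genes also had negative medians in every tissue. The fed-state medians were -0.45 in the gastrocnemius, -0.88 in the diaphragm and -0.18 in the heart. Those of the glucocorticoid-responsive list were -0.25, -0.20 and -0.35.

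The 18 PPARα and ketogenesis targets had a median of 0.13, with 2 at an unadjusted p under 0.05, Vnn1 and Plin2, both higher. Fabp1, a fatty acid binding protein gene abundant in the liver, had a log2 fold change of -0.01. The 18 genes of amino acid breakdown and the urea cycle had a median of -0.05, and Cps1 and Hpd had -0.08 each. The 16 relatives of lipins, angiopoietin-like proteins and IGF-binding proteins had a median of -0.03, with Igfbp4 at -0.01. Lpin2 of that list, the other main hepatic lipin, had means of 353 ± 67.5 CPM in the WT and 222 ± 41.8 CPM in the Mtm1-/y livers without overlap (unadjusted p = 0.00588, adjusted p = 0.969, edgeR), and it too is named after its values were seen.

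The gene whose pattern over the 7 livers was nearest to a member was found by the root mean square difference of log2 CPM after each gene was centred on its own mean. For Tat it was Klf15, at a difference of 0.0889, where Tat itself had a root mean square of 0.419. For Fbp1 it was Zfp553 (0.0319 against 0.143) and for Angptl4 Srpx2 (0.0772 against 0.306). The variable genes had less close neighbours: Dusp6 for G6pc (0.27 against 0.678), Cd44 for Igfbp1 (0.277 against 0.925) and Mcam for Lpin1 (0.185). The search ran over 12173 genes and 7 libraries. Over all 30 libraries, where the tissues set the pattern, the nearest genes were the liver enzyme genes Cdo1 for Pck1, Mat1a for G6pc, Hsd17b2 for Fbp1 and Ftcd for Tat. For Igfbp1, Angptl4 and Lpin1 they were Keg1, Serpina3n and Rnf144b.

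In the gastrocnemius 4 of the 7 genes changed, in opposite directions: Pck1 and Angptl4 rose, and Tat and Lpin1 fell in Mtm1-/y mice by edgeR, where 29% of 15456 genes were called (14.1% higher, 14.9% lower). Of the 7 genes, 5 passed the filter on low counts, and G6pc and Igfbp1 did not. Dividing by library totals in place of TMM moved the median log2 fold change of all genes from 0.02 to 0.35 and the share of calls that were higher from 48.5% to 92.2%, and the values below are relative to the TMM scale. The groups did not overlap for Angptl4, higher in Mtm1-/y (14.7% of genes), or for Tat and Lpin1, lower (16%), so for 3 of the 5 tested (30.7% in either direction). DESeq2 (25.7% of genes) and limma voom (29.7%) also called these 4.

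Angptl4 had 5.65, 3.42, 5.3 and 12.7 CPM in the WT libraries and 20.1, 20, 18.3 and 29.9 CPM in Mtm1-/y gastrocnemius. Every Mtm1-/y library exceeded the highest WT library. It rose by 1.70 ± 0.34 on the log2 scale, a level 3.25 times higher (adjusted p = 0.00543, edgeR), and Angptl4 passed without each of the 8 libraries in turn.

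Pck1 had 10.7, 7.71, 6.59 and 18.6 CPM in the WT libraries and 24.2, 16.8, 23 and 27 CPM in Mtm1-/y gastrocnemius. WT library 4 lay above Mtm1-/y library 2, and the other libraries were separated. It rose by 1.06 ± 0.29 on the log2 scale (adjusted p = 0.0229, edgeR). The call was lost without any 1 of WT libraries 1, 2 and 3 and Mtm1-/y libraries 1 and 4, with adjusted p from 0.0502 to 0.0698.

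Lpin1, the most abundant of the 7 in this muscle, had 417, 294, 337 and 422 CPM in the WT libraries and 204, 234, 288 and 291 CPM in Mtm1-/y libraries. The highest Mtm1-/y library, at 291 CPM, was just under the lowest WT library, at 294 CPM. It fell, with a log2 fold change of -0.53 ± 0.15 (adjusted p = 0.0236, edgeR), and -0.20 with an adjusted p of 0.304 when library totals were used. The call was also lost without WT library 1 or 4 or Mtm1-/y library 1 or 2, with adjusted p from 0.0574 to 0.0652.

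Tat was low in this muscle, with 61, 22, 64 and 27 reads in the WT libraries and 8, 4, 21 and 2 reads in the Mtm1-/y libraries. All WT libraries were above all Mtm1-/y libraries, the closest being 0.808 CPM in a WT and 0.586 CPM in an Mtm1-/y library. Tat fell, with a log2 fold change of -2.46 ± 0.58 (adjusted p = 0.0108, edgeR). Fbp1 had 10 to 34 reads per WT library and 14, 3, 260 and 9 reads in the Mtm1-/y libraries. The third of these set the mean, and the log2 fold change was 1.55 ± 1.13 with it (adjusted p = 0.327, edgeR) and -1.53 without it (adjusted p = 0.0472). G6pc had 5 to 25 reads in WT and 1 to 15 in Mtm1-/y libraries, and Igfbp1 had 0 to 5 reads in every library.

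Markers of fat cells and of hepatocytes changed in the same libraries. Adipoq, the adiponectin gene, had 5.48, 5.25, 3.54 and 13.6 CPM in the WT libraries and 21.6, 14, 20.9 and 21.9 CPM in Mtm1-/y gastrocnemius, and Plin1, which coats the fat cell's lipid droplet, had 3.45, 3.67, 2.46 and 10.1 against 16.3, 6.75, 15.7 and 17.2 CPM. In both, as in Pck1, WT library 4 was the highest of its group and Mtm1-/y library 2 the lowest of its own. Of the 12 white adipocyte markers 7 rose and 1 fell by edgeR. Their summed level, 4120 to 5410 CPM in the WT and 3280 to 4440 CPM in the Mtm1-/y libraries, is mostly Car3 and Lpl, which the muscle also expresses. With the mean log2 level of the 12 markers as a covariate, the log2 fold change was -0.16 for Pck1 (adjusted p = 0.69), 0.61 for Angptl4 (adjusted p = 0.422), -2.19 for Tat (adjusted p = 0.333) and -1.01 for Lpin1 (adjusted p = 0.0417), by edgeR.

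Alb, the hepatocyte's albumin gene, had 61, 30.7, 49.1 and 17.9 CPM in the WT libraries and 6.02, 3.96, 34.3 and 2.40 CPM in Mtm1-/y gastrocnemius, and 3 of 12 hepatocyte markers fell by edgeR and none rose. The summed level of the 12 ran from 33.3 to 121 CPM in WT and from 6.25 to 61.5 CPM in Mtm1-/y. The amount of Tat per amount of Alb lay within the range of the 7 livers in 6 of the 8 gastrocnemius libraries, and that of G6pc in 7 of 8. For Pck1, Angptl4 and Lpin1 it lay above the livers' range in all 8, at 3.90 times the liver median or more. For Fbp1 it was above that range in all 8 too, at 1.18 to 19.5 times the median. For Igfbp1 it was within the range in 4 of 8, at 0 to 4.01 times the median. Macrophage markers rose too, 6 of 6 tested, and their part in these results was not tested.

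**Figure D3:**
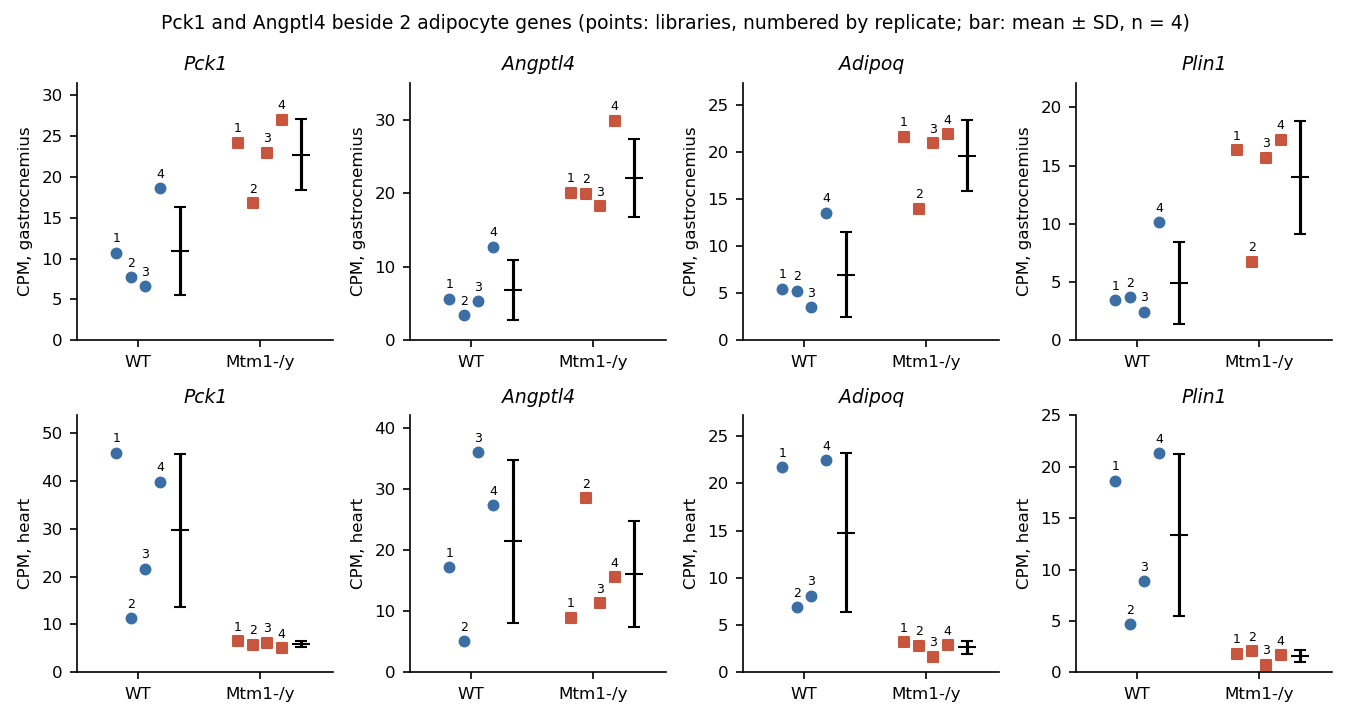
CPM (linear axes from 0) of Pck1, Angptl4, Adipoq and Plin1 in the gastrocnemius (top) and the heart (bottom), blue circles for WT and red squares for Mtm1-/y libraries, numbered by replicate, with the mean and SD (n = 4). Pck1, Adipoq and Plin1 are higher on average in Mtm1-/y gastrocnemius and lower in Mtm1-/y heart, where Pck1 lies at 5.05 to 6.55 CPM.

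Of the related lists, the fed-state genes had 9 of 17 that fell and none that rose in the gastrocnemius. They include Me1, malic enzyme, with means of 237 ± 29.7 CPM in WT libraries and 128 ± 6.3 CPM in the others, with Ppp1r3c and Khk. Of the other gluconeogenic enzymes 7 fell and 1 rose: Slc37a4, the glucose-6-phosphate transporter that works with G6pc, fell by 1.17 ± 0.11 on the log2 scale, and Gpd1, Pcx and Mdh2 were the next by p. The muscle isozyme Fbp2, beyond those 4 and named after its values were seen, fell from 49.7 ± 13.5 to 19.1 ± 6.49 CPM. Of the fasting regulators 1 rose, Cebpa, and 4 fell, with Ppara, Insr and Ppargc1a of smallest p. Of the PPARα targets 2 rose, Vnn1 and Plin2, and 2 fell, Acadm and Fabp1. Of the amino acid genes 2 rose and 3 fell, with Oat, Asl, Gpt2 and Prodh of smallest p. Of the lipin, angiopoietin-like and IGF-binding relatives 3 rose, namely Igfbp2, Igfbp4 and Lpin2, and 2 fell, among them Gpihbp1. Of the glucocorticoid-responsive genes 3 rose, namely the metallothioneins Mt1 and Mt2 and the cell cycle inhibitor Cdkn1a, and 2 fell, among them Gadd45b. No clock gene passed in edgeR, with 3 at an unadjusted p under 0.05 and 2 called by DESeq2.

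In the heart none of the 7 genes passed in edgeR, where Mtm1 alone was called, 0.00656% of 15238 genes. At an unadjusted p under 0.05 edgeR marked Pck1 and Fbp1 (8.88% of genes), DESeq2 called Pck1 and G6pc (0.453% of genes), and limma voom called none. Pck1 was at 45.9, 11.3, 21.6 and 39.8 CPM in WT hearts. The Mtm1-/y hearts had 6.55, 5.82, 6.21 and 5.05 CPM. All Mtm1-/y hearts were below all WT hearts and close to each other, while WT hearts ranged widely. The log2 fold change was -2.33 ± 0.39 (unadjusted p = 0.000213, adjusted p = 0.353, edgeR), with adjusted p = 4.22e-07 in DESeq2 and 0.0179 in edgeR without WT heart 2.

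Fbp1 was higher in Mtm1-/y hearts without overlap but at 0.222 to 1.23 CPM in all 8, with a log2 fold change of 1.01 ± 0.34 (unadjusted p = 0.0154, adjusted p = 0.546, edgeR). The groups of 2.1% of genes did not overlap with Mtm1-/y higher, of 2.16% with it lower and of 4.26% in either direction. G6pc had 4, 0, 0 and 3 reads in WT and 39, 15, 9 and 7 reads in Mtm1-/y hearts, and the edgeR filter left it out. Every Mtm1-/y heart had more reads of it than every WT heart, and DESeq2 gave a log2 fold change of 3.47 with an adjusted p of 0.0431. Igfbp1 had 0 to 5 reads per heart. Angptl4 ranged from 5.11 to 36 CPM in the WT hearts and from 8.97 to 28.6 CPM in the others, Tat from 0.476 to 4.25 and from 1.33 to 3.33 CPM, and Lpin1 from 201 to 280 and from 234 to 299 CPM. These 3 overlapped, with log2 fold changes of -0.41 ± 0.54, -0.05 ± 0.61 and 0.10 ± 0.12.

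Markers of the same cell types differed in level between the groups of hearts. Adipoq had 21.7, 6.88, 8.13 and 22.4 CPM in the WT hearts and 3.22, 2.85, 1.65 and 2.86 CPM in Mtm1-/y hearts, and Plin1 had 18.6, 4.69, 8.86 and 21.3 against 1.81, 2.06, 0.766 and 1.66 CPM. WT hearts 1 and 4 were the highest and WT heart 2 the lowest for both, as for Pck1. Of 11 white adipocyte markers tested, 8 were lower at an unadjusted p under 0.05 and DESeq2 called 7, and 0 passed in edgeR. The log2 fold change was positive for 2 of the 11. The summed level of all 12 overlapped, at 3830 to 6010 CPM in the WT and 5270 to 6440 CPM in the Mtm1-/y hearts. Alb had 25.1, 0.951, 2.59 and 2.79 CPM in the WT hearts and 102, 46.6, 27.9 and 36.5 CPM in Mtm1-/y hearts, and 10 of 12 hepatocyte markers were higher at an unadjusted p under 0.05 by edgeR. Their summed level was 9.77 to 117 CPM in the WT and 61.9 to 169 CPM in the Mtm1-/y hearts. With the adipocyte markers as a covariate the log2 fold change of Pck1 was -0.55 (adjusted p = 0.999, edgeR). The amount of G6pc per amount of Alb lay within the range of the livers in 5 of 8 hearts. It was at 0.865 to 1.65 times the liver median in the Mtm1-/y hearts and at 0 to 4.08 times in the WT hearts. The part of the hepatocyte markers in the G6pc reads of the heart was not tested. No gene of the 8 related lists passed in the heart by edgeR.

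In the diaphragm none of the 7 genes passed in edgeR (0.0119% of 16796 genes did), none had an unadjusted p under 0.05 (10.8% of genes) and none was called by DESeq2 (2.37%) or limma voom (0.0536%). All 7 log2 fold changes were negative, with a median of -0.37 beside -0.01 over all genes tested, and no group was free of overlap (9.97% of genes). Pck1 had 1360, 1100, 97.3 and 1570 CPM in the WT diaphragms and 320, 1250 and 61.8 CPM in Mtm1-/y diaphragms. WT library 3 and Mtm1-/y libraries 1 and 4 were low, and the other 4 were high. G6pc followed the same split with 200, 153, 1.79 and 274 CPM against 18.2, 298 and 7.20 CPM. Tat had 844, 578, 12.5 and 621 CPM against 53.8, 560 and 10.3 CPM, and Fbp1 ranged from 4.73 to 431 CPM and Igfbp1 from 0.848 to 119 CPM over the same libraries.

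Alb had the same split, with 26600, 17700, 294 and 19300 CPM in the WT and 1680, 33800 and 565 CPM in the Mtm1-/y diaphragms, and all 12 hepatocyte markers had negative log2 fold changes. The ratio of each gene to Alb was set against the median ratio of the 7 livers. G6pc lay within the range of the livers in 7 of 7 diaphragms, at 0.73 to 1.70 times their median, and Tat in 5 of 7, at 0.796 to 2.04 times. Fbp1 was at 1.04 to 1.49 times, Igfbp1 at 1.17 to 3.76 times and Pck1 at 1.07 to 9.62 times. Angptl4, at 1.39 to 22.2 times, and Lpin1, at 3.32 to 315 times, lay above the livers' range in all 7. Lpin1 kept 656 to 758 CPM in the WT diaphragms whatever their Alb, and had 326, 841 and 477 CPM in the Mtm1-/y diaphragms. With the mean log2 level of the hepatocyte markers as a covariate, Tat alone passed, at -0.95 (adjusted p = 0.0405, edgeR). No gene of the 8 related lists passed in the diaphragm by edgeR without that covariate.

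**Figure D4:**
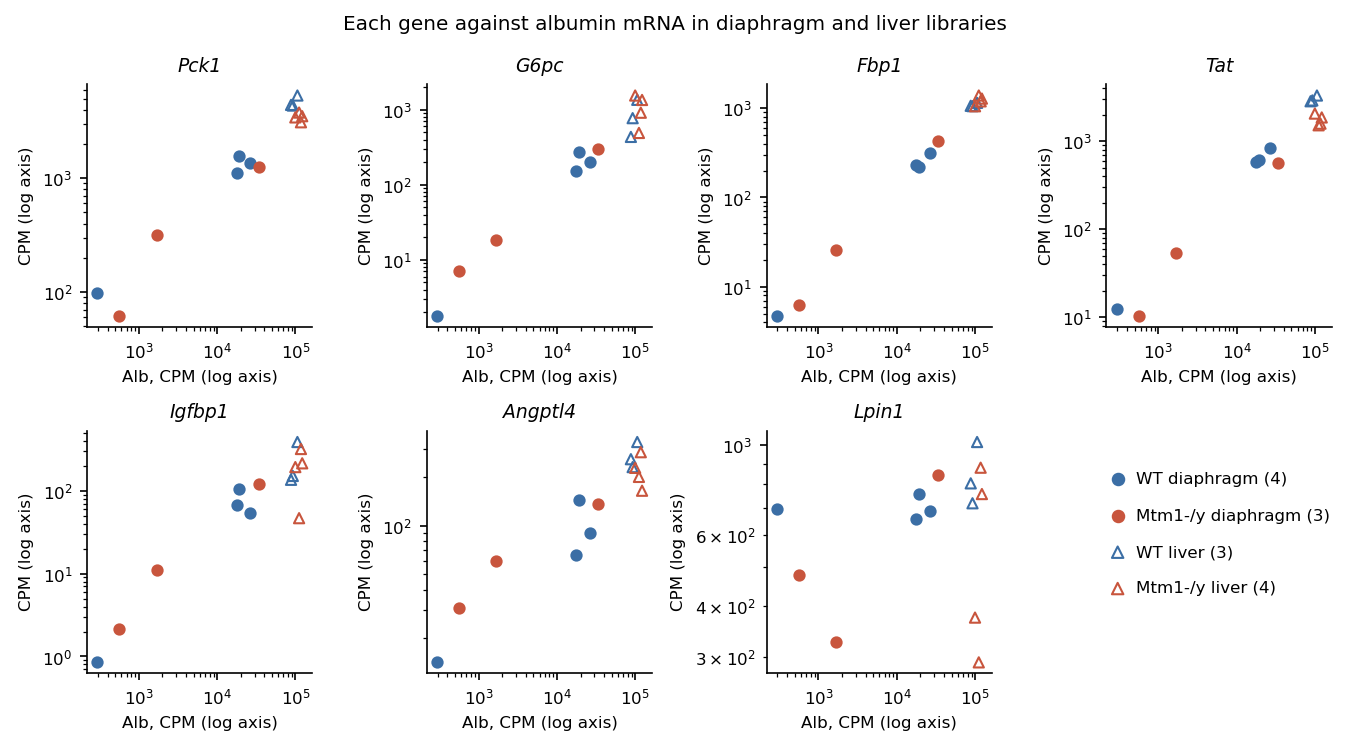
CPM of each gene against CPM of Alb, both on log axes, in 7 diaphragm libraries (filled circles) and 7 liver libraries (open triangles), blue for WT and red for Mtm1-/y. G6pc, Fbp1, Tat and Igfbp1 are higher in libraries with more Alb, while Lpin1 lies at 656 to 758 CPM in the WT diaphragms at low and high Alb.

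Whether the genotype effect itself differed between tissues was tested in 1 edgeR fit per pair of tissues. Between liver and gastrocnemius the effect differed for Pck1, by -1.47 ± 0.40 on the log2 scale (adjusted p = 0.0411), and for Angptl4, by -1.98 ± 0.45 (adjusted p = 0.0188), where 6.34% of 17179 genes differed. The effect on Pck1 was -0.44 in the liver and 1.06 in the gastrocnemius. The Pck1 difference held without 4 of the 15 libraries only, these being WT gastrocnemius 4, Mtm1-/y gastrocnemius 2 and Mtm1-/y livers 1 and 2, and reached an adjusted p of 0.0913 without WT liver 3, and the Angptl4 difference was lost without WT liver 3 alone (adjusted p = 0.0506). Tat differed by 1.72 ± 0.58, which missed the threshold (adjusted p = 0.0913).

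Between heart and gastrocnemius, 4 of the 6 genes tested differed, where 19.8% of 16627 genes did. Pck1 differed by -3.36 ± 0.53 (adjusted p = 0.000923) and passed with each of the 16 libraries left out in turn. G6pc differed by 4.60 ± 1.23 (adjusted p = 0.0179), from the reads given above, and also passed in all 16. These reads were few, with 0 to 4 in each WT heart. G6pc failed the filter on low counts in each of these tissues alone and entered this test only with their libraries pooled. In the edgeR fit of all 30 libraries G6pc missed the threshold (adjusted p = 0.152). Angptl4 differed by -2.09 ± 0.71 (adjusted p = 0.0487) and Lpin1 by 0.65 ± 0.20 (adjusted p = 0.036). Angptl4 passed without 3 of the 16 libraries in turn (WT gastrocnemius 4, WT heart 2 or Mtm1-/y heart 2), with adjusted p up to 0.103, and Lpin1 without 7 of them, with adjusted p up to 0.0768. Both comparisons share the gastrocnemius libraries.

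Between liver and heart no gene of the 7 differed at an adjusted p under 0.05 in edgeR (0% of 16941 genes), although 3 of them had an unadjusted p under 0.05: Pck1 by 1.88 ± 0.47 (adjusted p = 0.397), G6pc by -3.07 ± 1.1 (adjusted p = 0.732) and Fbp1 by -0.84 ± 0.33 (adjusted p = 0.776). DESeq2 called Pck1 here (adjusted p = 0.00409). Between liver and diaphragm none differed either (0% of 17347 genes), none had an unadjusted p under 0.05, and the SE of the difference reached 1.77 for G6pc and Igfbp1.

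**Figure D5:**
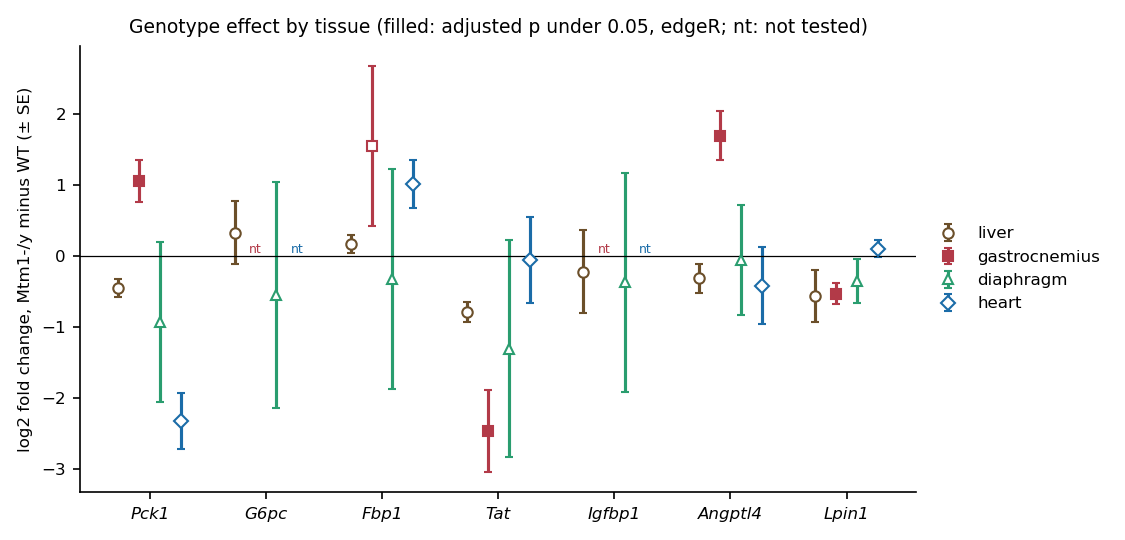
Log2 fold change of Mtm1-/y against WT with its SE for each gene in the liver (circles), gastrocnemius (squares), diaphragm (triangles) and heart (diamonds), filled where the adjusted p from edgeR was under 0.05 and marked nt where the gene was filtered out. Filled points occur in the gastrocnemius alone, and Pck1 runs from -2.33 in the heart to 1.06 in the gastrocnemius.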

How the data were processed

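The authors deposited raw read counts per gene for 30 libraries, made from poly(A) RNA with a stranded kit and single-end reads. Per the methods and the submitters' processing notes, reads were demultiplexed with bcl2fastq 2.17.1.14, trimmed with cutadapt 1.10, aligned to mm10 with STAR 2.5.3a and counted with HTSeq 0.6.1p1, which drops multi-mapping and ambiguous reads. The strand setting is not given in the sources used here. From these counts, each tissue was fitted on its own in edgeR 4.0.16 (R 4.3.3): filterByExpr with a minimum count of 10, TMM scaling and the two-sided quasi-likelihood test, with Benjamini-Hochberg adjustment over all genes tested and a threshold of 0.05. The script was tested on simulated data. DESeq2 1.42.0, limma 3.58.1 (voom with sample weights), other scalings, no filter, a fit of all 30 libraries, marker covariates and leaving out each library were alternatives. Figures were drawn with matplotlib 3.10.9. Groups came from the sample labels, and p-values measure the spread between these libraries.

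The members and gene lists were chosen with earlier results of these data known. From each related list the text names up to 4 genes that passed in a tissue, smallest p first, or the 2 most abundant in the liver where none passed. For likeness it names the nearest gene of at least 1 CPM, with a prior count of 2; other names are said to be chosen after their values were seen. Some genes that this rule names are not reported here. Marker covariates are means of log2(CPM + 1). Replicate numbers recur across genotypes, but the labels do not say that they mark a shared litter or day. The numbers recur across tissues too, and whether tissues came from the same mice is not given in the sources used here. The reported tests between tissues treated all libraries as independent. A count of 0 allows up to 3 reads, for counting error only.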

Additional observations from a re-analysis of the deposited data

Results flagged for a closer look

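Of 42 groups of 4 libraries checked for a sample far from the others, 2 were marked, and chance marks about 1 in 20 such groups. Fbp1 was at 7.26 CPM in Mtm1-/y gastrocnemius 3, and the next library of the group had 0.336 CPM. Angptl4 was at 29.9 CPM in Mtm1-/y gastrocnemius 4, and the next had 20.1 CPM.

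The genotype effect differed between tissues in 6 tests by edgeR. Between liver and gastrocnemius it differed by -1.47 for Pck1 and by -1.98 for Angptl4 on the log2 scale. Between heart and gastrocnemius it differed by -3.36 for Pck1, by 4.60 for G6pc, by -2.09 for Angptl4 and by 0.65 for Lpin1. All 6 rest on the same 8 gastrocnemius libraries, and the adipocyte and hepatocyte markers given beside the levels moved in the same libraries. G6pc failed the filter on low counts in the heart alone and in the gastrocnemius alone.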

How the results depend on the processing

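Of the 7 genes in the liver, DESeq2 called 1. In the gastrocnemius 1 passed in place of 4 in the fit of all 30 libraries and 1 with the adipocyte covariate. In the diaphragm 1 passed with the hepatocyte covariate, and in the heart DESeq2 called 2. For the effect difference between liver and gastrocnemius, 1 passed without the filter and 0 with all 30 libraries, in place of 2. Between liver and heart DESeq2 called 1. Between heart and gastrocnemius 2 passed without the filter and 1 with all 30 libraries, in place of 4. Between WT heart and WT gastrocnemius 3 passed with library totals, 2 in DESeq2 and 0 with a log2 fold change over 1 as well, in place of 1. Between WT liver and WT diaphragm Lpin1 no longer passed with library totals (adjusted p = 0.0954, edgeR). Except for DESeq2 within a tissue, the count over all genes in these fits is not given here. A change in such a count of the 7 genes cannot be told from a change in all genes called.

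Leaving out 1 library gave 2 to 5 of the 7 genes in the gastrocnemius, where 3324 to 4280 of all genes were called. It gave 0 to 1 in the heart (1 to 19 of all genes). In the liver (0 to 8 of all genes) and the diaphragm (0 to 162) it gave 0 to 0. For the difference between liver and gastrocnemius it gave 0 to 3 (603 to 1402 of all genes). Between liver and heart this was 0 to 1 (0 to 70), and between heart and gastrocnemius 2 to 5 (2409 to 3824). Between WT heart and WT gastrocnemius it was 1 to 5 (10014 to 11453 of all genes), with 5 without WT diaphragm 3. Between the WT diaphragm and the WT heart (8108 to 9492) or liver (12836 to 13593) it was 6 to 7.

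The log2 value turned sign in 20 other fits, none of them past the threshold in the reported fit except Pck1 in the gastrocnemius. With limma voom these were Igfbp1 in the liver (0.0448), Fbp1 in the gastrocnemius (-0.63), Tat in the heart (0.25) and Tat between WT heart and gastrocnemius (-0.11). Voom also turned the effect differences of Fbp1 between liver and gastrocnemius (0.87), Angptl4 and Lpin1 between liver and diaphragm (0.29 each) and Fbp1 between heart and gastrocnemius (1.62). With the adipocyte covariate they were Pck1 in the gastrocnemius (-0.16) and Tat (3.39), Angptl4 (0.12) and Lpin1 (-0.10) in the heart. With the hepatocyte covariate they were G6pc (0.045), Igfbp1 (0.0788) and Angptl4 (0.46) in the diaphragm. The Lpin1 difference between liver and gastrocnemius was -0.39 with library totals and -0.00797 with all 30 libraries. The cause was not tested.

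Leaving out 1 library turned the sign of Igfbp1 in the liver (-0.57 to 0.43), Fbp1 in the gastrocnemius (-1.53 to 1.95) Tat in the heart (-0.39 to 0.50) and Tat between WT heart and WT gastrocnemius (-0.20 to 0.67). In the diaphragm it turned Fbp1 (-3.59 to 0.24), Angptl4 (-0.78 to 0.42), Igfbp1 (-3.10 to 0.19) and G6pc (-3.63 to 0.00012). It turned the differences between liver and gastrocnemius of Lpin1 (-0.27 to 0.22) and Fbp1 (-1.73 to 1.72), that between liver and heart of Angptl4 (-0.25 to 0.55) and that between heart and gastrocnemius of Fbp1 (-0.91 to 2.56). Between liver and diaphragm it turned Igfbp1 (-0.35 to 2.92), Angptl4 (-0.68 to 0.52), Lpin1 (-0.46 to 0.28) and Fbp1 (-0.0157 to 3.80).

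Samples that share a replicate number deviated together in some pairs only, and in no tissue did every pair correlate over 0.1, so the numbers were not taken to pair the samples. The correlations ran from -0.0142 to 0.423 in the liver (0.423, -0.0142 and 0.235 for numbers 1 to 3), from -0.0136 to 0.104 in the gastrocnemius, from -0.695 to 0.505 in the diaphragm and from -0.59 to 0.312 in the heart, and in no tissue did every sample correlate best with its own number. With the replicate number as a block, 0 genes passed in the liver, 4 in the gastrocnemius, 0 each in the heart and diaphragm, and 3 differed between liver and gastrocnemius and 3 between heart and gastrocnemius. Under the block Tat was gained in both (adjusted p = 0.0484 and 0.0418, edgeR), while between heart and gastrocnemius Angptl4 (adjusted p = 0.0965) and Lpin1 (adjusted p = 0.0636) no longer passed. These fits left out libraries without a partner of the same number, and their count over all genes is not given here. Gains and losses under the block cannot be told from a change in all genes called. The block turned Tat in the heart (0.24), the difference of Angptl4 between liver and diaphragm (0.22) and that of Fbp1 between heart and gastrocnemius (1.02).

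With 3 or 4 libraries a group, depth limits G6pc and Igfbp1 in the gastrocnemius and heart, where 0 to 39 reads were counted per library, and the spread between libraries limits the other values.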
